A study of Saccharomyces cerevisiae with 7 samples.

Results

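The subject is the hour between 4 h and 5 h of yeast meiosis, followed in sporulating cultures of Saccharomyces cerevisiae. A gene was included when its messenger RNA level at 5 h was at least 2-fold above or below its level at 4 h, and 608 of the 5666 genes with values met that rule. Of these, 530 (9.35% of all genes) were higher at 5 h and 78 (1.38%) were lower at 5 h. Both groups were chosen by these very differences, so the differences are given as a description and carry no test.

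The series is a time course in budding yeast sampled at 1, 2, 3, 4, 5, 6 and 8 h, with no treatment or mutant compared. At each hour, poly(A)+ RNA was labelled red and hybridised on a 2-colour array against a green reference pooled from the meiotic samples, per the labels and the design text. The deposited number is a log2 ratio to 0 h, called the level below, so a level of 0 is the amount at 0 h. The step of a gene is its level at 5 h minus its level at 4 h, also in log2 units, and the division by 0 h cancels in it. The design text names 3 independent cultures, but each hour has 1 deposited column, so no value has a replicate error and no difference has a p-value. The sources used here do not give the strain, the array platform or the way the cultures were combined, and no spot intensities were used. Each column averages a whole culture, so a larger share of cells at a stage and more RNA per cell cannot be told apart.

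Yeast meiosis runs as a transcriptional cascade. Early genes copy the chromosomes, break them and pair the homologues. The transcription factor Ndt80 then turns on the middle genes, which drive the cell out of prophase, through both nuclear divisions and into the wrapping of each nucleus by a new prospore membrane. The Sum1 repressor holds many middle genes off until then. The spore wall, with its mannan, glucan, chitosan and dityrosine layers, is built on that membrane afterwards.

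The step was uneven in direction and in size. Among the higher genes the median step was 1.63, a 3.10-fold difference, and 184 were at least 4-fold, 68 at least 8-fold and 27 at least 16-fold higher at 5 h. Among the lower genes the median step was -1.17, and 2 of them (CTR3 and MGA1) were at least 4-fold lower. The bulk of the genome lay slightly the other way from the large steps: 3271 genes had a step below 0 and 2363 a step above 0, with a median of -0.11. Just inside the limit, OKP1 had levels of 2.07 at 5 h and 1.07 at 4 h and CHD1 had levels of 0.47 and -0.53. Just outside it, DSN1 had levels of 0.89 at 5 h and -0.10 at 4 h.

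The 5 h column also had a wider spread over genes than the 4 h column, with an SD of 1.48 against 1.05. The later columns were as wide, with SDs of 1.50 at 6 h and 1.51 at 8 h. Higher genes made up 87.2% of the 608. When each column was scaled to the same SD, 313 genes were higher and 123 lower (71.8% higher), and after quantile normalization of the columns 332 were higher and 182 lower (64.6% higher). Of the 530 higher genes 296 stayed past 2-fold with equal SDs and 7 changed sign. Of the 78 lower genes 25 stayed past 2-fold and 5 changed sign. Whether a scale factor of the 5 h column made part of the steps was not tested. Below, "equal-spread scaling" means the columns scaled to the same SD.

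**Figure D1:**
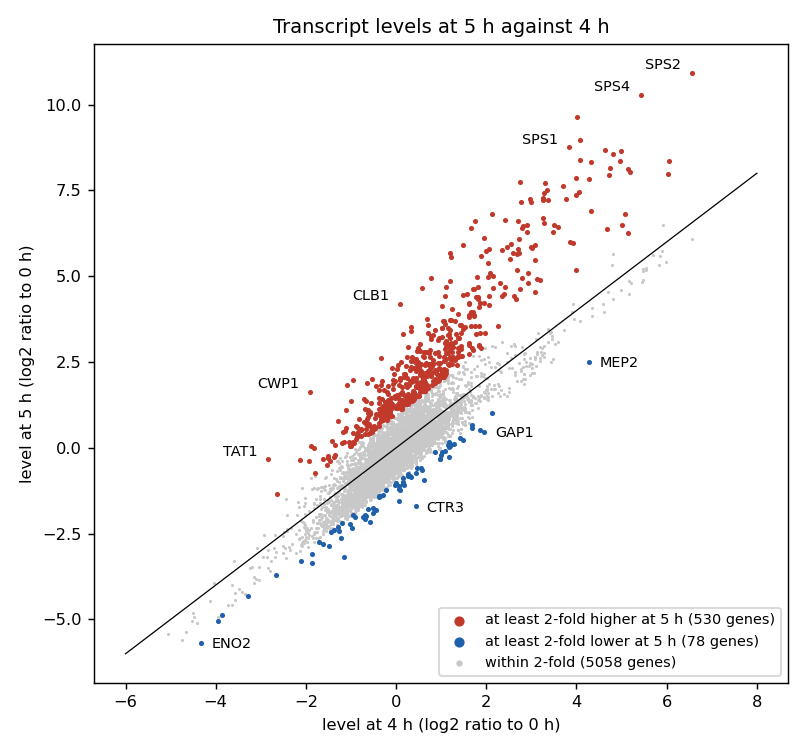
Level of each of 5666 genes at 5 h (vertical axis) against 4 h (horizontal axis), both as log2 ratios to 0 h; the line marks equal levels. The 530 genes at least 2-fold higher at 5 h (red) rise to a level of 10.92 (SPS2), the 78 at least 2-fold lower (blue) lie below the line, and genes already high at 4 h form 2 branches, one far above the line and one just below it.

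The neighbouring intervals held far fewer such genes. From 3 h to 4 h, 110 genes were at least 2-fold higher and 10 at least 2-fold lower at the later hour, and from 5 h to 6 h the counts were 9 and 0. These intervals share the 4 h or the 5 h column with the step, so they are set side by side only. The 6 h and 3 h columns do not enter the step, and the 0 h division cancels. They belong to the same time course and used the pooled reference too, so they are not an independent repeat. Their spreads differ as well, with an SD of 1.50 at 6 h against 0.91 at 3 h. Whether a scale factor made part of the counts that follow was not tested. At 6 h, 522 of the 530 higher genes were at least 2-fold above 3 h, and all 530 were above it by some amount. Over all genes 12.4% were at least 2-fold higher at 6 h than at 3 h. Of the 78 lower genes 65 were at least 2-fold below their 3 h level at 6 h and all 78 were below it, while 4.57% of all genes were that much lower.

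The median of the higher genes lay near the 0 h level up to 3 h and was held from 5 h on. It was 0.04, 0.10, 0.13, 0.61, 2.25, 2.40 and 2.38 at 1, 2, 3, 4, 5, 6 and 8 h. At 5 h, 446 of them were at least 2-fold above 0 h, against 203 at 4 h. None had lost as much as 2-fold between 5 h and 8 h, and 58 had gained a further 2-fold. The largest level of the course was at 8 h for 302 genes, at 6 h for 109 and at 5 h for 116 (at 1 h for the other 3). Only 3 genes were at least 2-fold below 0 h at 4 h and at least 2-fold above it at 5 h. They were GNP1, a glutamine permease gene, PRR2, a protein kinase gene, and CWP1, a gene for a mannoprotein of the cell wall.

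CWP1 had levels of -3.01, -2.97, -3.50, -1.90, 1.63, 2.12 and 2.78 at 1, 2, 3, 4, 5, 6 and 8 h. It was therefore below its 0 h amount at all 4 early hours and above it at all 3 later ones, with a step of 3.53.

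The lower genes had a median level of -1.21 at 5 h and 0.06 at 4 h, and it was -0.99 at 8 h. At 5 h, 46 of them were at least 2-fold below 0 h, against 19 at 4 h. By 8 h, 10 had come back by at least 2-fold and 2 had gone down by a further 2-fold (CTR3 and OLE1). The returning genes included the ribosome assembly gene EMG1, at -2.62 at 5 h and -0.72 at 8 h, the ribosome-associated protein gene TMA19, at -1.90 and -0.90, and the sterol desaturase gene ERG3, at -3.29 and -1.46.

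**Figure D2:**
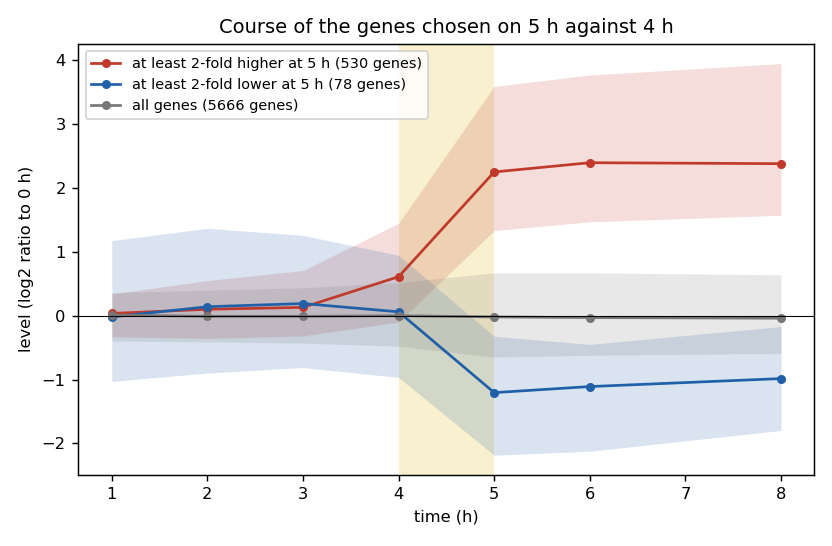
Median level (points and lines, log2 ratio to 0 h) and the range from the 25th to the 75th percentile (bands) over genes against time in hours, for the 530 higher genes, the 78 lower genes and all 5666 genes; the shaded hour is the one the genes were chosen on. The medians of both groups lie near 0 up to 3 h and stay apart from 5 h to 8 h, at 2.25 and -1.21 at 5 h.

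Genes that were already strongly raised at 4 h divided by their earlier history. At 4 h, 112 genes were at least 8-fold above 0 h. Of these, 49 were at least 2-fold higher at 5 h, 62 were within 2-fold and 1, the ammonium permease gene MEP2, was lower. At 2 h, 7 of the 49 but 59 of the 62 were already at least 4-fold above 0 h, with median levels of 0.46 and 3.28. The groups overlapped at 2 h, with levels from -1.01 to 3.95 in the higher group and from 1.73 to 6.48 in the other. The 8-fold limit was chosen after the values were seen. Genes of the late-rising branch included NDT80, SPS1, SPR3, SSP1 and CDA1, and those of the other branch included REC8, DMC1, HOP1, SPO13 and IME2.

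Among genes with a standard name, the 15 highest steps are listed first. They were, from the top, SPS1, SPR2, CTS2, SPS4, GAT4, SGA1, SPR6, GAS2, SPS2, RRT12, HXT14, SPS22, PIR5, SSP2 and HXT10, with steps from 4.91 to 4.17. SPS1 (YDR523C), a kinase needed to close the prospore membrane and build the wall, had levels of -0.34, -0.64, 0.31, 3.84, 8.75, 9.33 and 10.23 at 1, 2, 3, 4, 5, 6 and 8 h. Its step of 4.91 is a 30.1-fold difference in 1 hour, and its level was already well above 0 h at 4 h. With equal-spread scaling the step of SPS1 was 2.34, and the 15 steps ran from 1.15 (SPS2) to 2.91 (CTS2). With quantile normalization SPS2 was under 2-fold (0.54). SGA1, the glucoamylase that breaks down glycogen in sporulating cells, had levels of 6.80 at 5 h and 2.13 at 4 h. GAT4, which encodes a GATA-type zinc finger protein, had levels of 6.41 at 5 h and 1.67 at 4 h, and CTS2, a chitinase-related gene, 6.62 and 1.76.

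The uncharacterised gene YPR078C, singled out after its value was seen, had the highest step of all 5666 (5.62). Its levels were 9.64 at 5 h and 4.02 at 4 h. HXT14 and HXT10, members of the hexose transporter family, had steps of 4.30 and 4.17. Of 17 measured genes of that family HXT8 (1.08) was the other one past the limit upwards, and the glucose transporter gene HXT2 was lower at 5 h (-1.12). HXT10 went on climbing, with levels of 4.95, 6.10 and 7.93 at 5, 6 and 8 h.

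Genes of the prospore membrane and of the meiotic outer plaque, where that membrane starts, formed the list with the largest median step. Of 20 measured members 18 were at least 2-fold higher at 5 h and 0 lower, against 9.35% and 1.38% of all genes. The list's median step was 2.91, beside -0.11 over all genes, and 1.33 with equal-spread scaling. The highest were SPS1, SSP2 (4.18), whose product activates the wall kinase Smk1, and GIP1 (4.09), which encodes a targeting subunit of the Glc7 phosphatase. SPO20, the sporulation form of the SNARE that fuses vesicles into the membrane, had levels of 7.23 at 5 h and 3.25 at 4 h. SSP1, of the coat at the leading edge, had levels of 8.14 at 5 h and 4.75 at 4 h.

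The outer plaque genes did not move by like amounts in the deposited values. SPO74 and SPO21 had steps of 3.74 and 2.85, and ADY4 had a step of 2.53. With equal-spread scaling the steps of SPO74, SPO21 and ADY4 were 1.23, 1.13 and 1.38, closer together and in another order. MPC54, another plaque gene, had a level of 5.19 at 5 h against 3.99 at 4 h, and that step of 1.20 turned to -0.33 with equal-spread scaling and to -0.79 with quantile normalization. MPC54 had been at 2.81 as early as 1 h. The members within 2-fold were NUD1 (0.44), whose product also scaffolds the plaque of growing cells, and SPO1 (-0.38), a phospholipase-related gene of spindle pole duplication that was at 3.44 at 2 h.

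Spore wall genes followed, with 21 of 29 at least 2-fold higher at 5 h, 0 lower and a median step of 2.62 (1.12 with equal-spread scaling). The share higher was likewise above the 9.35% of all genes. GAS2, a glucan-remodelling enzyme gene of the spore wall, had levels of 7.15 at 5 h and 2.77 at 4 h. SPS2 and its relative SPS22, both cell wall protein genes, had steps of 4.36 and 4.28, and RRT12, a protease gene of the dityrosine layer, had a step of 4.35. The chitin deacetylase genes CDA1 and CDA2 had steps of 3.67 and 2.92, and SMK1, the MAP kinase of wall assembly, had levels of 4.68 at 5 h and 1.81 at 4 h.

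The dityrosine genes were split by the hour. DIT2, a cytochrome P450 gene, had levels of 4.40 at 5 h and 1.78 at 4 h, and 6.89 at 8 h. DIT1, which acts before it in the same pathway, had levels of 1.27 at 5 h and 0.88 at 4 h, and then 4.09 at 6 h and 7.73 at 8 h. SPS100, a late wall gene, had levels of 0.72 at 5 h and 1.01 at 4 h and reached 2.62 at 8 h. SHC1, the sporulation activator of chitin synthase III, had the lowest step of the list (-0.94), with levels of 2.50 at 5 h and 3.44 at 4 h, and CHS3, the synthase itself, had a step of 0.61. For DIT1 and SPS100 the larger differences thus lay after this hour.

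Septins form rings at the bud neck and line the prospore membrane in meiosis. Of 7 septin genes 4 were at least 2-fold higher at 5 h, a share above the 9.35% of all genes. The sporulation-specific genes SPR3 and SPR28 had steps of 4.06 and 3.39, or 1.50 and 0.93 with equal-spread scaling, and the list's median step of 2.61 was then 0.93. CDC10 and CDC3, which serve growing cells as well, had steps of 2.97 and 2.61, or 1.66 and 1.37 with equal-spread scaling. The order of SPR3, SPR28, CDC10 and CDC3 thus depended on the scaling. SHS1 (0.58), CDC11 (0.00) and CDC12 (-0.06) stayed within 2-fold. CDC3 had levels of 4.22 at 5 h and 1.61 at 4 h, against -0.40 and -0.34 for CDC12.

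The machinery of the divisions was the other large block. Of 17 measured genes for the anaphase-promoting complex, its activators and its substrates, 14 were at least 2-fold higher at 5 h and 0 lower. Over all genes 9.35% were that much higher. The list's median step was 1.87 (0.87 with equal-spread scaling). This complex is the ubiquitin ligase that destroys securin and cyclins. CDC20, the activator of the first anaphase, had levels of -0.54, -0.43, -0.38, 0.33, 3.39, 3.55 and 3.74 at 1, 2, 3, 4, 5, 6 and 8 h. The difference between 4 h and 5 h was thus by far the largest between neighbouring columns of its course.

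Core subunit genes were higher at 5 h as well. APC5 had a step of 2.88, CDC27 2.52, CDC16 2.49, CDC26 2.48, APC2 2.21 and CDC23 2.11. PDS1, the securin gene, had levels of 4.42 at 5 h and 2.61 at 4 h, and with equal-spread scaling its step was 0.51 and that of CDC23 0.98. The separase gene ESP1 (0.52), MND2, whose product restrains the complex in prophase (-0.15), and DOC1 (-0.32) were within 2-fold. AMA1, the meiosis-specific activator, had levels of 6.38 at 5 h and 4.68 at 4 h, and this step of 1.70 turned to -0.18 with equal-spread scaling and to -0.52 with quantile normalization.

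All 5 cyclin genes past the limit were B-type cyclins. CLB1 (YGR108W) had levels of -0.17, -1.01, -2.39, 0.09, 4.19, 4.16 and 4.11 at 1, 2, 3, 4, 5, 6 and 8 h. It was the lowest of these cyclins at 3 h, and its step of 4.10 was a 17.1-fold difference. CLB6 had levels of 5.65 at 5 h and 2.68 at 4 h, CLB4 4.99 and 2.04, CLB3 3.70 and 1.06, and CLB5 4.34 and 2.66. With equal-spread scaling the step of CLB5 was 0.40, under 2-fold. CLB2, the main mitotic B-type cyclin, had levels of 0.56 at 5 h and -0.37 at 4 h, a step of 0.93. The kinase gene CDC28 had a step of 0.72, and the G1 cyclin genes CLN2 and CLN3 had steps of -0.20 and -0.15.

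NDT80 itself had levels of 6.90 at 5 h and 4.32 at 4 h, a step of 2.58, after 1.62 at 3 h. With equal-spread scaling that step was 0.55, under 2-fold. CDC5, the polo kinase gene that Ndt80 turns on, had levels of -0.55, 2.31 and 4.80 at 3, 4 and 5 h. Over all genes 9.35% were at least 2-fold higher at 5 h. Of 9 measured genes in the list of monopolin, shugoshin and polo kinase, 4 were. They were CDC5 (2.49), the casein kinase gene HRR25 (2.39), SGO1 (1.81, and 0.76 with equal-spread scaling), which protects centromeric cohesin, and MAM1 (1.73), of monopolin. MAM1 turned to -0.27 with equal-spread scaling and to -0.48 with quantile normalization, and the list median of 0.27 turned to -0.18 and -0.15. SPO13, which helps set up the first division and is expressed early, had levels of 5.24 at 5 h and 5.55 at 4 h.

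**Figure D3:**
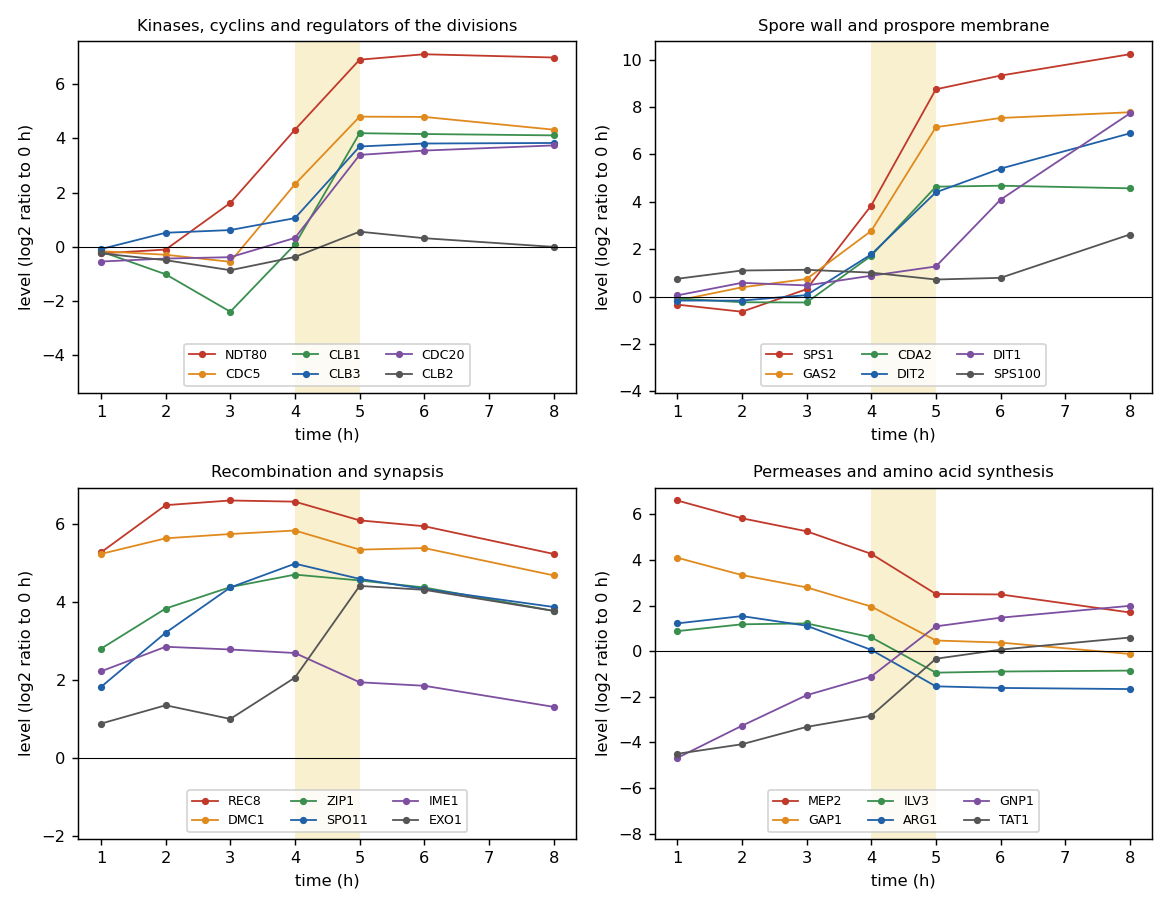
Level (vertical axis, log2 ratio to 0 h) against time in hours for 6 genes in each of 4 panels, with 1 point per deposited column and the hour from 4 h to 5 h shaded. CLB1, CDC20 and SPS1 climb steeply in that hour, and DIT1 and SPS100 climb after it. REC8, DMC1, ZIP1 and SPO11 are a little lower at 5 h than at 4 h. Rescaling the columns lowers such high genes much further, by construction. MEP2 and GAP1 decline while GNP1 and TAT1 climb.

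The spindle and kinetochore lists held a few genes past the limit each. In the spindle pole body list and the tubulin and motor list the share higher was above the 9.35% of all genes. Of 13 spindle pole body genes 4 were at least 2-fold higher at 5 h: SPC42 (2.59) and SPC29 (1.14) of the central plaque, KAR1 (2.09) of the half-bridge, and BBP1 (1.40). Of 14 tubulin and motor genes 4 were higher: STU2, a microtubule polymerase gene (2.30), the kinesin genes KAR3 (1.22) and CIN8 (1.05), and the midzone bundler ASE1 (1.08). With equal-spread scaling SPC29 (0.27), BBP1 (0.79), KAR3 (0.43), CIN8 (0.44), ASE1 (0.96) and OKP1 (0.39) were under 2-fold. The tubulin genes TUB1, TUB2 and TUB3 had steps of 0.14, 0.60 and 0.25. In the kinetochore and checkpoint list 2 of 32 were past the limit, a share below the 9.35% of all genes. They were MPS1 (2.52), the checkpoint kinase also needed for spindle pole duplication, and OKP1 (1.00). The kinetochore list's median step of 0.135 turned to -0.10 with equal-spread scaling and to -0.07 with quantile normalization, and that of the spindle pole body, 0.35, turned to -0.07 with quantile normalization.

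Some genes that end mitosis were past the limit. CDC14, the phosphatase gene of mitotic exit, had levels of 2.11 at 5 h and 0.94 at 4 h, and the kinase gene DBF20 and its partner gene MOB1 had steps of 1.39 and 1.35. They were the 3 past the limit among 9 genes of the mitotic exit network, a share above the 9.35% of all genes. With equal-spread scaling CDC14 (0.55) and DBF20 (0.75) were under 2-fold. The transcription factor gene SWI5 (1.78) and the cytokinesis genes HOF1 (1.70) and BUD4 (1.62) were also at least 2-fold higher at 5 h. Other genes of late mitosis lay the other way within 2-fold, among them ASH1 (-0.57), CTS1 (-0.51) and SCW11 (-0.41). SWI5, HOF1 and BUD4 were each more than 2-fold below 0 h at 4 h, and SWI5 was still at -0.35 at 5 h.

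Recombination genes had small downward steps in the deposited values, and large ones once the columns were rescaled. Both rescalings narrow the 5 h column, which by construction pulls down genes that were high at both hours. The rescaled values are thus no separate evidence of a decline. Of 16 genes for the chromosome axis and synapsis 0 were past the limit in either direction as deposited, against 15 lower with equal-spread scaling and 16 lower with quantile normalization. Their median step was -0.365 as deposited and -1.485 with equal-spread scaling, and 15 of the 16 deposited steps were below 0. REC8, the meiotic cohesin subunit, had levels of 6.09 at 5 h and 6.57 at 4 h, and HOP1, of the axis, 4.88 and 5.48. MSH5, of the crossover complex, was the single member with a step above 0 (0.27).

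Among 9 strand exchange genes 0 were past the limit as deposited and 4 were lower by 2-fold with equal-spread scaling, and 8 of the deposited steps were below 0. DMC1, the meiotic recombinase, had levels of 5.34 at 5 h and 5.83 at 4 h. Among 10 genes for break formation, SAE2, which processes the breaks, was at least 2-fold higher at 5 h, with levels of 2.14 against 1.08 at 4 h (a step of 0.43 with equal-spread scaling). As 1 of 10, it is a share near the 9.35% of all genes. The other 9 had steps from -0.68 (REC102) to -0.09 (XRS2), and SPO11, the gene of the cutting enzyme, had a step of -0.39. EXO1, a nuclease used in resection and in making crossovers, was the 1 gene past the limit among 16 crossover and mismatch repair genes, with levels of 4.41 at 5 h and 2.06 at 4 h, and the other 15 were within 2-fold. In that list the share past the limit was below the one over all genes.

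Among 16 entry regulators of meiosis 2 were past the limit, NDT80 and RFM1 (1.01, and 0.43 with equal-spread scaling), a share not far from the 9.35% of all genes. RFM1 and HST1 (0.98) encode partners of the Sum1 repressor, whose own gene SUM1 had levels of 0.16 at 5 h and -0.05 at 4 h. IME1, the master activator of entry, was the lowest, with levels of 1.94 at 5 h and 2.69 at 4 h, while the kinase gene IME2 had levels of 6.49 and 5.91. The RNA-binding protein gene RIM4, which delays translation of middle transcripts, had a step of -0.25. The list's median step of 0.19 turned to -0.27 with equal-spread scaling.

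**Figure D4:**
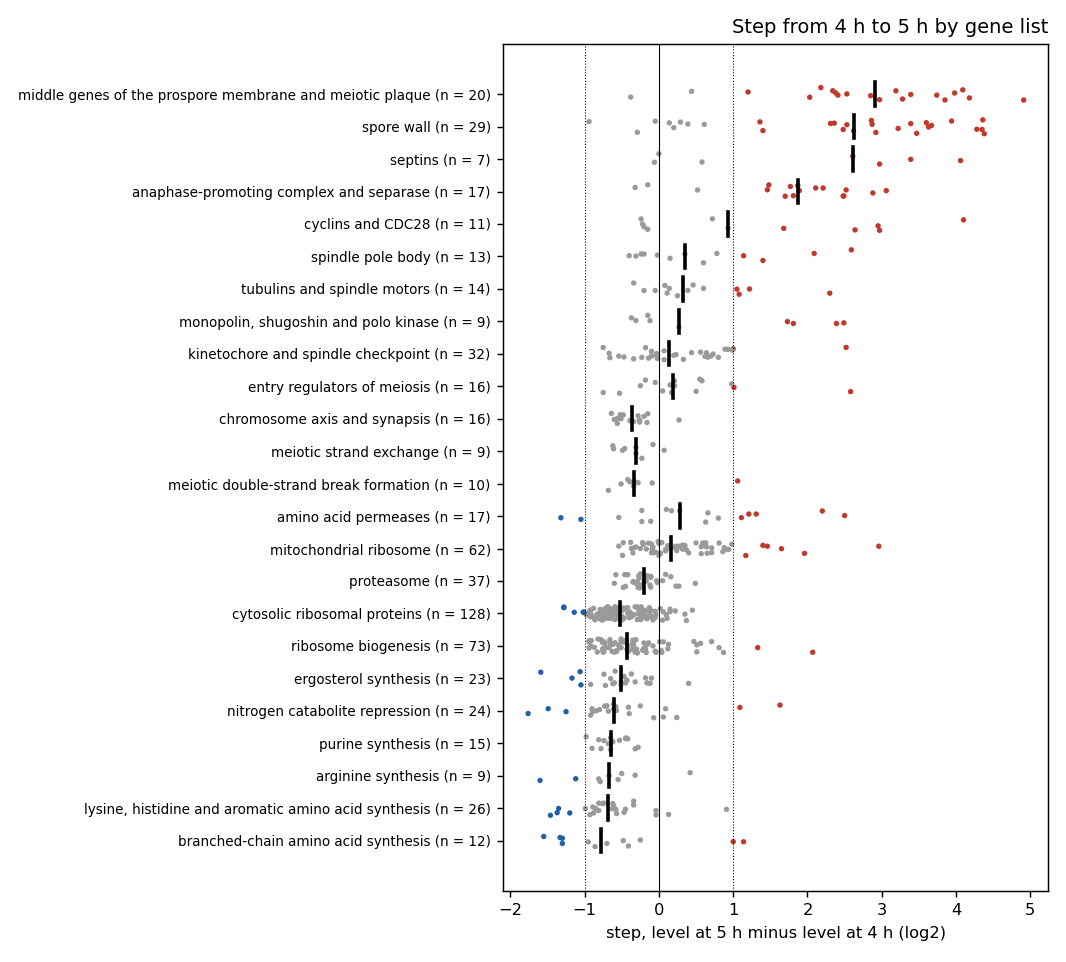
Step from 4 h to 5 h (horizontal axis, log2 of 5 h over 4 h) for each measured member of 24 gene lists; each point is a gene, the black bar is the list median, and dotted lines mark 2-fold. Points past 2-fold are red (higher at 5 h) or blue (lower at 5 h). Medians run from 2.91 in the prospore membrane list to -0.78 in the list of branched-chain amino acid synthesis, and no member of the axis and synapsis list passes 2-fold in the deposited values.

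The 15 lowest steps among named genes belonged to CTR3, MGA1, MEP2, ARG1, ERG5, ILV3, SIT1, GAP1, ARO4, EMG1, TMA19, IRC7, HIS4, ARO8 and ENO2, from -2.13 to -1.35. With equal-spread scaling ERG5, SIT1, EMG1, TMA19, IRC7, HIS4 and ARO8 kept their sign but were under 2-fold. CTR3, a copper transporter gene, had levels of -0.48, 0.13, 0.83, 0.43, -1.70, -2.21 and -3.27 at 1, 2, 3, 4, 5, 6 and 8 h. It was within 2-fold of its 0 h amount until 4 h and kept declining to the end. ENO2, an enolase gene with the near-identical copy ENO1, had levels of -5.68 at 5 h and -4.33 at 4 h, and its step turned to 0.32 with equal-spread scaling.

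The lower nitrogen-regulated genes MEP2, GAP1 and CPS1 were already declining before this hour. MEP2, the high-affinity ammonium permease gene, had levels of 6.61, 5.83, 5.26, 4.27, 2.51, 2.49 and 1.70 at 1, 2, 3, 4, 5, 6 and 8 h. Its step of -1.76 was larger than the difference between any other neighbouring columns of its course. GAP1, the general amino acid permease gene, had levels of 0.47 at 5 h and 1.96 at 4 h, and CPS1, a vacuolar carboxypeptidase gene, -1.19 and 0.06. Among 24 measured genes under nitrogen catabolite repression these 3 were lower and 2 were higher, with a median step of -0.61 (-0.68 with equal-spread scaling). The share higher was near the 9.35% of all genes, and the share lower was above their 1.38%. The higher ones were GLN1, glutamine synthetase, with levels of 0.45 at 5 h and -1.18 at 4 h, and GDH2, the glutamate dehydrogenase that releases ammonium, with -0.38 and -1.47.

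Several branches of amino acid synthesis held lower genes. Of 12 genes for branched-chain amino acids, 4 were at least 2-fold lower at 5 h: ILV3 (-1.55), LEU2 (-1.33), ILV2 (-1.30) and BAT1 (-1.30), the mitochondrial transaminase. ILV3 had levels of -0.94 at 5 h and 0.61 at 4 h. In the same list 2 were higher, BAT2 (1.14), the cytosolic transaminase, and LEU3 (1.00), the transcription factor of the pathway. Over all genes 1.38% were lower and 9.35% higher. The list's median step was -0.78, and -0.62 with equal-spread scaling.

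Arginine synthesis had 2 of 9 genes lower, ARG1 (-1.60) and ARG7 (-1.12), and 8 of the 9 steps were below 0. ARG1 had levels of -1.54 at 5 h and 0.06 at 4 h. For lysine, histidine and the aromatic amino acids 4 of 26 were lower and 24 of 26 steps were below 0, with a median of -0.685, though 1 passed 2-fold with equal-spread scaling. The 4 were ARO4 (-1.46), HIS4 (-1.37), ARO8 (-1.35) and TRP5 (-1.20). In sulfur metabolism 4 of 27 were lower, SAM1, SAM2, MET17 and MET6, and the regulator gene MET4 was higher (1.47). In the arginine list, the lysine, histidine and aromatic list and the sulfur list the share lower was above the 1.38% of all genes. The close copies SAM1 and SAM2 may share probe signal, which leaves their individual steps (-1.24 and -1.17) uncertain. No purine synthesis gene passed 2-fold, but all 15 steps were below 0, with a median of -0.65 (-0.21 with equal-spread scaling). The pyrimidine gene URA1 had levels of -4.87 at 5 h and -3.86 at 4 h, and its step of -1.01 turned to 0.42 with equal-spread scaling.

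Amino acid permeases went both ways. TAT1 and GNP1, permease genes for branched-chain and aromatic amino acids and for glutamine, were among the lowest genes of the early course. TAT1 had levels of -4.50, -4.08, -3.32, -2.83, -0.33, 0.07 and 0.60 at 1, 2, 3, 4, 5, 6 and 8 h. GNP1 had levels of 1.09 at 5 h and -1.11 at 4 h. The basic amino acid permease genes ALP1 (1.31) and LYP1 (1.21) and the amino acid sensor gene SSY1 (1.11) were also higher, whereas the permease genes DIP5 (-1.32), for acidic amino acids, and AGP1 (-1.05) were lower, so that 5 of 17 were higher and 2 lower. Both shares were above those over all genes, 9.35% higher and 1.38% lower. With equal-spread scaling ALP1, SSY1, DIP5 and AGP1 were under 2-fold.

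Sterol and iron genes contributed a few members. Of 23 ergosterol genes 4 were lower, ERG5 (-1.59), ERG3 (-1.17), MVD1 (-1.06) and ERG24 (-1.05), and 22 of 23 steps were below 0, with a median of -0.51. With equal-spread scaling that median was -0.35 and 0 passed 2-fold. Over all genes 1.38% were lower in the deposited values. Among 22 iron genes the siderophore transporter gene SIT1 (-1.51) and the iron permease gene FTR1 (-1.03) were lower, against 1.38% of all genes. FET5 (1.80) and FTH1 (1.74), the oxidase and permease that move iron out of the vacuole, were higher, a share of the list near the 9.35% of all genes. With equal-spread scaling these 4 steps were -0.52, -0.22, 0.95 and 0.99, all under 2-fold. FET5 had levels of 2.88 at 5 h and 1.08 at 4 h.

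Growth-related lists had shallow steps. Of 128 cytosolic ribosomal protein genes 5 were at least 2-fold lower and 0 higher, and 117 steps were below 0, with a median of -0.525 that was -0.01 with equal-spread scaling, where 0 passed 2-fold. In the deposited values the share lower was above the 1.38% of all genes. The lowest were the near-identical pair RPL4A and RPL4B, each at -1.28. YEF3, an elongation factor gene particular to fungi, had levels of -1.75 at 5 h and -0.52 at 4 h. Ribosome biogenesis genes had a median step of -0.43 (-0.07 with equal-spread scaling), with 0 of 73 lower and 2 higher, the RNA helicase genes DBP3 (2.07) and DRS1 (1.33). The 2 higher are a share well below the 9.35% of all genes. Glycolysis had 1 of 17 genes past the limit, ENO2, and its median step of -0.52 turned to 0.41 with equal-spread scaling and was 0.00 with quantile normalization. Of 37 proteasome genes 0 passed the limit.

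Of 62 genes of the mitochondrial ribosome 6 were at least 2-fold higher at 5 h and 0 lower, with a median step of 0.165 (0.455 with equal-spread scaling). MRPS17 had levels of 2.62 at 5 h and -0.34 at 4 h, and 4.19 at 8 h. MRPL37 (1.96), MRP20 (1.65), MRP49 (1.46), MRPL32 (1.40) and MRPL24 (1.17) were the others. With 9.35% of all genes past the same limit, 6 of 62 is near the background.

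Haploid mating genes were measured as well. These genes are kept off by the a1-alpha2 repressor in a/alpha diploids or are specific to one haploid type, and they served as markers of haploid cells. Of 15 measured members 4 were at least 2-fold higher at 5 h, a share above the 9.35% of all genes. They were STE4 and STE18, the beta and gamma subunits of the pheromone G protein, STE5, the scaffold of the kinase cascade, and STE3, the a-factor receptor. STE4 had levels of 3.87 at 5 h and 1.61 at 4 h, STE18 2.16 and 0.19, STE5 2.76 and 0.86, and STE3 4.55 and 3.09. The step of STE3 was 0.12 with equal-spread scaling and turned to -0.24 with quantile normalization. The kinase gene FUS3 (-0.27) and the agglutinin gene AGA2 (-0.30) were within 2-fold, and the list's median step of 0.07 was -0.02 with equal-spread scaling. The steps of the list ran from -0.30 to 2.26, and the part of haploid cells in these levels was not tested.

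Stress and autophagy genes contributed singly. The heat-inducible chaperone genes SSA3 (1.28), SSA4 (1.10) and HSP26 (1.04) were the 3 higher ones among 26 chaperone genes, a share near the 9.35% of all genes. ATG3 and ATG4, which act in attaching the autophagy protein Atg8 to membranes, had steps of 2.23 and 1.30 and were the 2 past the limit among 22 autophagy genes, also near the background. ATG3 had levels of 3.19 at 5 h and 0.96 at 4 h. PIG2, a phosphatase-targeting subunit gene of glycogen metabolism, had a step of 1.79 beside the 4.67 of SGA1. The other 17 of 19 trehalose and glycogen genes were within 2-fold, so the share past the limit was again near the background. ORC3 (2.22) and ORC1 (1.24), subunits of the origin recognition complex, were the 2 past the limit among 44 DNA replication genes, a share below that background. With equal-spread scaling SSA3, SSA4, HSP26, ATG4 and ORC1 were under 2-fold.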

How the data were processed

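The authors deposited 1 log2 ratio per gene and time point, made from 2-colour arrays of each time point against a meiotic messenger RNA pool and divided by the ratio at 0 h, per the labels and the design text. The sources used here do not give the background correction, the normalization or the way the 3 cultures were combined. The log2 values were used as deposited. Of 6141 rows, 5666 had values, and 5238 of these matched a gene of the RefSeq R64 table, which supplied names and gene order. Steps were computed with Python 3.11.15 and pandas 2.3.3 at the 2 decimals of the table, with a limit of 1 on the log2 scale. There is no test, because each time point has 1 column, so precision is limited by how few arrays there are. Column medians were -0.02 at 5 h and 0.00 at 4 h.

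The genes, the 51 gene lists and the alternatives were chosen with earlier results of these data known. Named genes are 30 landmarks, the 15 highest and 15 lowest steps among standard names, and up to 3 at each end of each list; others were named after their values were seen. Of the list names, 3 matched no row of the gene table. Promoter sequences were not used here. The result of 1 gene and of the list that holds it is not reported here.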

Additional observations from a re-analysis of the deposited data

How the results depend on the processing

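With the limit at 1.5-fold in place of 2-fold, 936 genes were higher and 734 lower at 5 h, and at 3-fold the counts were 277 and 5. With the columns scaled to the same SD 313 were higher and 123 lower, and with quantile normalization 332 and 182. With 3 h in place of 4 h 305 were lower, and 6 h minus 3 h gave 259 lower. The number higher under these last alternatives, and both numbers with centred columns, with 6 h in place of 5 h and with protein-coding rows only, stayed within 1.5 times the reported counts. Under equal SDs 7 of the 530 higher and 5 of the 78 lower genes changed sign, and under quantile normalization 11 and 0 did. Among the genes named by rule these were, under equal SDs, ENO2 (0.32), URA1 (0.42), AMA1 (-0.18), MAM1 (-0.27) and MPC54 (-0.33), and under quantile normalization AMA1 (-0.52), MAM1 (-0.48) and MPC54 (-0.79). Equal SDs shrink a wider column by construction. Signal over background was not used here. No paired analysis was possible because each time point has 1 column.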

Other observations

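Genes without a standard name were about as frequent among the higher genes as among all genes. Of the 530, 437 had a standard name, 53 were annotated genes known by their systematic name (10.0%, against 8.19% of all genes with values), and 40 were rows that matched no annotated gene (7.55%, against 7.55% of all genes with values). YDR042C and YGL230C had levels of 7.73 and 5.91 at 5 h, against 3.31 and 1.49 at 4 h. Among the 78 lower genes 1 was known only by its systematic name and 3 matched no gene. Of the 40 unmatched rows 37 have plain numbered names, and 28 of them (75.7%) are numbered next to a higher row, 26 of them next to a higher annotated gene. Of all 386 unmatched rows with such names 67 (17.4%) are next to a higher row. Of 490 higher annotated genes with such names 166 (33.9%) are. YPR077C, at 7.75 at 5 h and 2.75 at 4 h, is numbered next to YPR078C, YBR064W is next to CNM1, and YNL319W is next to HXT14. The sources used here do not say which strand the array reads, so such a row and an overlapping gene cannot be told apart.

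Higher genes often lay beside each other on the chromosome. Neighbours were taken in R64 gene order among protein-coding genes with values, so a gene without values can lie between them. By that order, 154 of 489 higher protein-coding genes (31.5%) had a higher gene as a neighbour, while 17.9% of all 5223 protein-coding genes with values had one. Both genes were higher in 28 of 1330 divergent pairs (2.11%), 39 of 2554 tandem pairs (1.53%) and 17 of 1323 convergent pairs (1.28%). Over all orientations it was 84 of 5207 pairs (1.61%), and the share that unlinked genes would give was not computed. Examples are the tandem genes SPS2 and SPS1 (steps of 4.36 and 4.91), the convergent genes CLB1 and CLB6 (4.10 and 2.97), CDA1 and CDA2 (3.67 and 2.92), and the divergent genes SPO75 and ORC3 (2.34 and 2.22). STE5 is convergent with the prospore membrane gene SPO71 (1.90 and 2.41). Tandem and convergent neighbours can share probe signal through overlapping transcripts, which was not tested.

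The 51 lists covered 134 of the 530 higher genes and 37 of the 78 lower genes, or 25.3% and 47.4%, beside 19.7% of all genes. The other 396 higher genes belong to no list. Only 3 higher genes gained a further 2-fold between 5 h and 6 h: HXT10, DIT2 and SDD1. The gene SDD1 stood at 0.38, 1.60, 2.96 and 4.05 at 4, 5, 6 and 8 h.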
